A study of Mus musculus with 15 samples.

Results

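The 50 genes described here drive the cell cycle and mitosis: the cyclins and their kinases, E2F factors, the genes that license and copy DNA, and the genes that build the spindle and separate chromosomes. They were given as a list of symbols and were found in the count tables through their Entrez gene IDs. All 50 were among the 24134 genes listed, and all 50 passed the filter on low counts, with at least 25 counts in every library. For the results below they were divided by role into 7 groups. The siRNA set held 3 libraries from cells transfected with control siRNA (siCtrl) and 3 from cells given siRNAs against *Tnks* and *Tnks2* together (siTnks/2). The inhibitor set held 3 libraries each from cells kept for 108 h in DMSO, in 10 μM XAV939 or in 10 μM IWR-1. All cells were primary articular chondrocytes of ICR mice at passage 0, taken from the knee cartilage of pups 4 to 5 days old, so each library reports a population in culture and not single cells. XAV939 and IWR-1 are small molecules that block the enzyme activity of the tankyrases TNKS and TNKS2, which attach poly(ADP-ribose) to other proteins. The question was how loss or inhibition of tankyrase moves these genes in each phase of the cycle.

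A cell that commits to division first makes D-type cyclins, which activate CDK4 and CDK6 and release E2F factors from the retinoblastoma protein. E2F factors then raise genes for licensing of replication origins, the replication clamp and deoxynucleotide synthesis. Later, cyclin B with CDK1, FOXM1 and the kinases PLK1, AURKA and AURKB carry the cell into mitosis. The spindle checkpoint holds back CDC20 and the anaphase-promoting complex, with which UBE2C acts, until chromosomes are attached to the spindle. Articular chondrocytes divide little in adult cartilage, and chondrocytes taken from young mice divide in culture. In bulk RNA, fewer dividing cells and less of these transcripts per dividing cell cannot be told apart.

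Promoter sequence is a feature that the choice of genes did not use, and 40 of the 50 genes had a promoter in the RefSeq table (build GRCm38.p6, 250 bases before to 50 after each annotated start). E2F letters were searched as TTTGGCGC, TTTCCCGC, TTTCGCGC and TTTGCCGC, the cell cycle homology region (CHR) as TTTGAA, and the CCAAT box as CCAAT, each on both strands, with overlapping matches allowed. E2F letters were found for 6 of 8 licensing and clamp genes and for 1 of 20 genes of the 3 mitotic role groups, against 4.59% of the 11201 tested genes with a promoter. CHR letters showed the other distribution, with 1 of 8 licensing genes and 13 of 20 mitotic genes, against 14.2% of tested genes. The E-type cyclin, *Cdk2* and E2F group lay between, with E2F letters for 3 of 6 genes and CHR letters for 2 of 6. Of the deoxynucleotide genes, 0 of 3 held either. CCAAT was found for 30 of the 40 genes, against 42.7%. Over all 27025 genes of the promoter table the shares were 2.605%, 20.2% and 41.1%. These matches are descriptions of the letters and are not evidence of binding.

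The 5 stretches below show both layouts, for genes whose values are given further on. Capitals mark E2F, CHR and CCAAT letters on either strand. *Mcm5* (chr8:75109349-75109467, plus strand) and *Mcm6* (chr1:128359706-128359865, minus strand) belong to the replicative helicase, and each carries an overlapping pair of E2F matches in opposite orientation, with a further match in *Mcm6*. *Cdk1* (chr10:69352913-69353072, minus strand) carries E2F, CHR and CCAAT letters together. *Top2a* (chr11:99024200-99024349, minus strand) and *Cdc20* (chr4:118437344-118437503, minus strand) carry CHR and CCAAT letters without E2F letters. All are upstream of the RefSeq gene span, and the last 26 bases for *Cdk1* and 9 for *Cdc20* fall in a longer GENCODE first exon.
Mcm5: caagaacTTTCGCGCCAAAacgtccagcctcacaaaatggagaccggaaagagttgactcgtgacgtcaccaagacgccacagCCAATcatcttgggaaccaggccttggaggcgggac
Mcm6: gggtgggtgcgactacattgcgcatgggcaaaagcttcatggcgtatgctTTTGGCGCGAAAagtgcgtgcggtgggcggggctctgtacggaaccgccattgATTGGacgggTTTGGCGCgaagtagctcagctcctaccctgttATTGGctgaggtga
Cdk1: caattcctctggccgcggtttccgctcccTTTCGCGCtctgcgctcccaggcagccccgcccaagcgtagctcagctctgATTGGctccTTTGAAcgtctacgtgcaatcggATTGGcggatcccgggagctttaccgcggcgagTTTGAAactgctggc
Top2a: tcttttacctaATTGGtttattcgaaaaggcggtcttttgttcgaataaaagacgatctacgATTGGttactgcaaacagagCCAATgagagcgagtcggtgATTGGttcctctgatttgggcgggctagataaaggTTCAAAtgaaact
Cdc20: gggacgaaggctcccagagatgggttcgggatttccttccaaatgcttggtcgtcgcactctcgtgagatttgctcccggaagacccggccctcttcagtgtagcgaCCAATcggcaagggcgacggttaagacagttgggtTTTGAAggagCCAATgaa

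**Figure D1:**
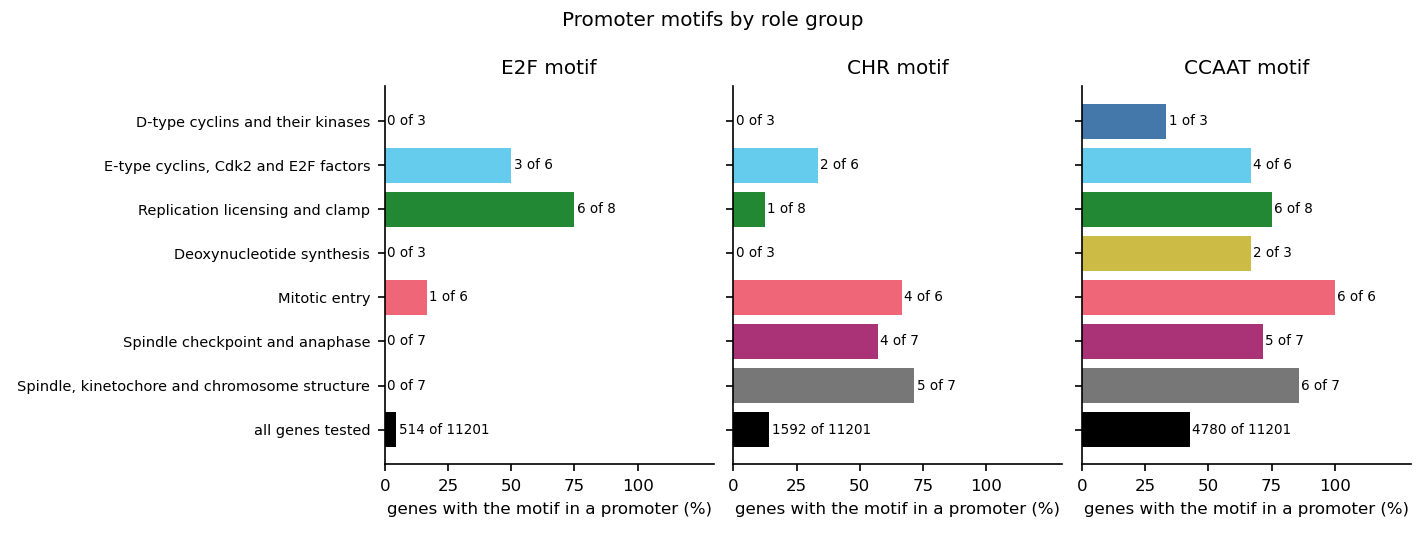
Share of genes (x axis, percent) whose promoter holds E2F, CHR or CCAAT letters, for each role group (bars, with counts) and for all 11201 tested genes with a promoter (black bars). E2F letters lie mainly in the licensing group, 6 of 8, and CHR letters mainly in the 3 mitotic groups, 13 of 20. The E-type and E2F group holds both, 3 of 6 and 2 of 6.

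Totals on genes ranged from 26857070 to 36615194 counts per library. Levels are CPM, a gene's counts per 1000000 counts of the library after TMM scaling, each table scaled on its own, so values are not set across the tables. *Tnks* was at 69.0, 58.4 and 70.1 CPM in siCtrl and at 19.5, 12.7 and 24.0 in siTnks/2, and *Tnks2* fell from 118, 120 and 115 to 58.2, 44.9 and 61.2, so the siRNA labels held for each library. siTnks/2 replicate 2 stood apart, with the lowest level of both targets and the highest sum of 10 chondrocyte markers, 201498 CPM against 87447 to 142386 in the other siRNA libraries. Its 5 endothelial markers summed to 6.88 CPM, against at most 1.59 in any of the other libraries, with *Pecam1* at 3.17 and *Cdh5* at 2.28. DMSO replicate 3 had higher values for long genes, with a median log2 deviation of 0.15 from its group for genes over 6 kb and of -0.27 for genes under 2 kb. All 10 chondrocyte markers were detected in every library. Of markers of other cell types, *Hbb-bt* was at 0 in all 15 libraries and *Cd3e* in 14, and the leukocyte list summed to at most 40.6 CPM.

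Per kilobase of exon, cyclins D2 and D1 and *Cdk4* had the highest mean levels in siCtrl, at 78.5, 74.8 and 68.9 CPM per kb, and *Cdk4* and the clamp gene *Pcna* in DMSO, at 69.3 and 50.5. At the low end, *Cdk6* had 0.312 CPM per kb in siCtrl and 0.0789 in DMSO, and *E2f2* had 0.699 and 0.730. The 50 genes together took 0.291 to 0.324% of the scaled counts in siCtrl, 0.139 to 0.255% in siTnks/2, 0.246 to 0.275% in DMSO, 0.269 to 0.313% with XAV939 and 0.246 to 0.296% with IWR-1.

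**Figure D2:**
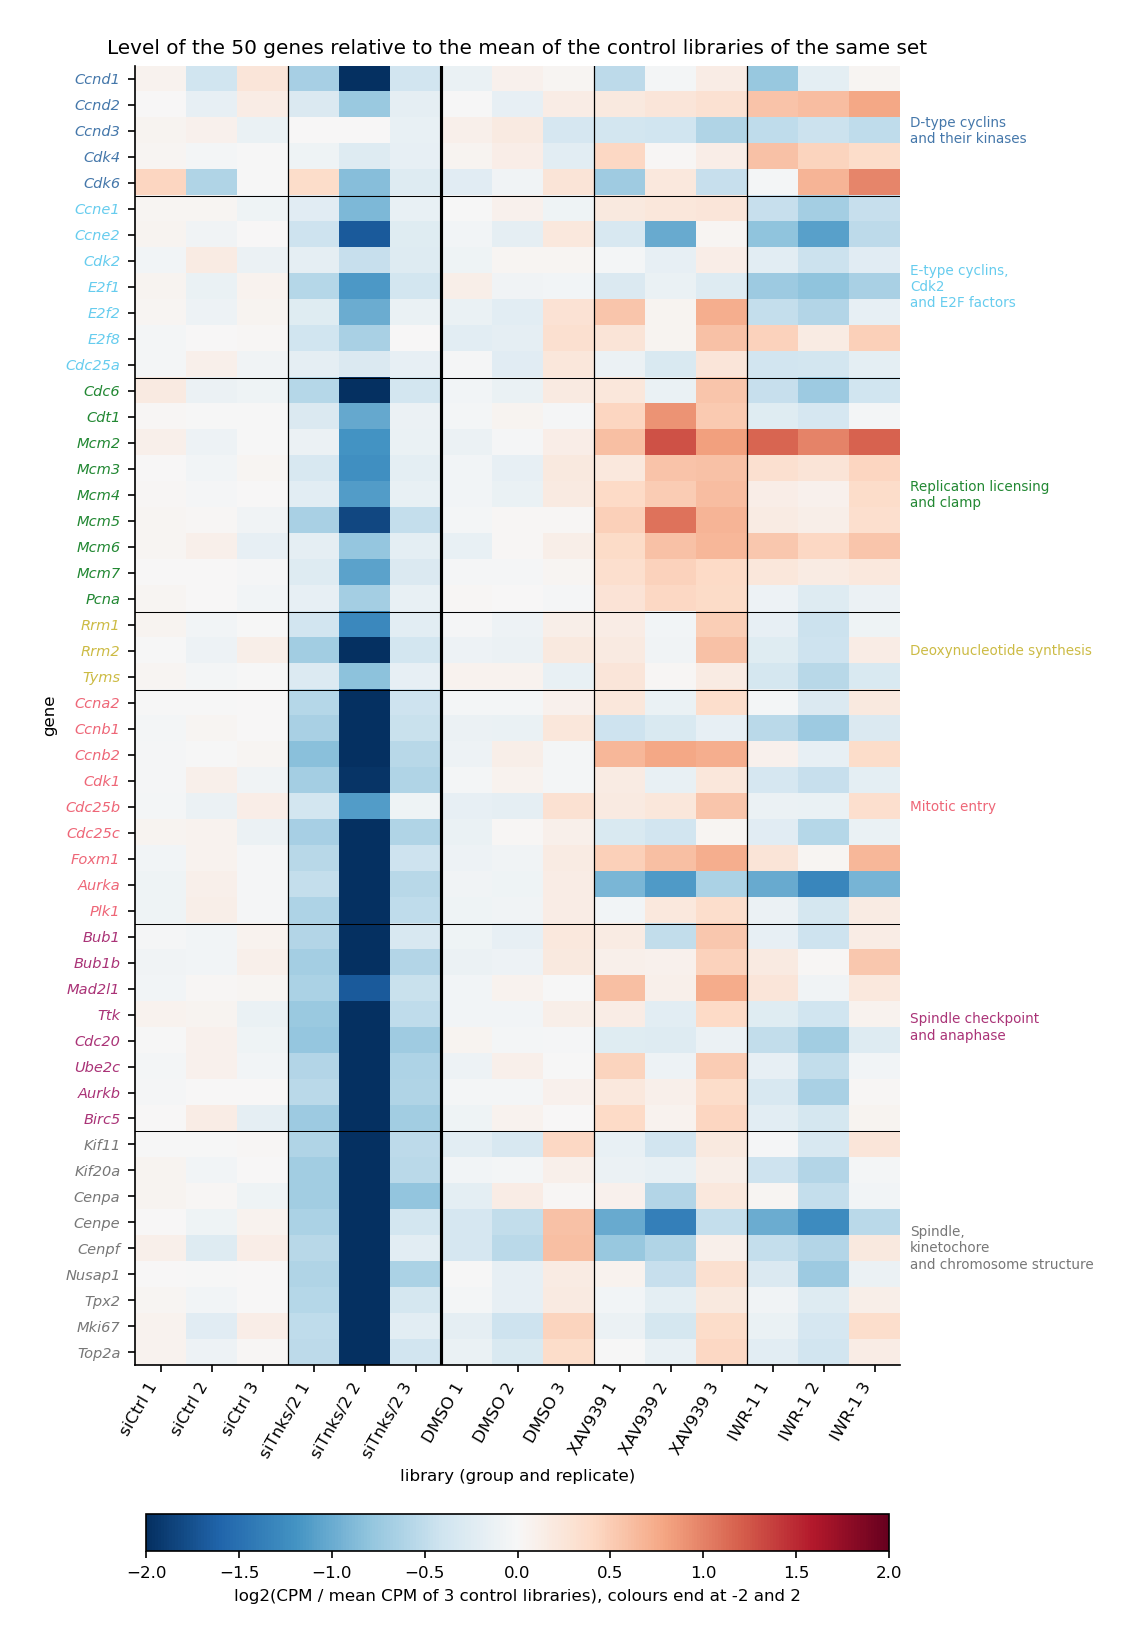
Level of each gene (rows, coloured by role group) in each library (columns) as log2 of CPM over the mean of the 3 control libraries of its set, with colours ending at -2 and 2. siTnks/2 replicate 2 is the darkest column, with a median of 24.6% of the siCtrl mean, and the licensing rows are red in the 3 XAV939 libraries, except *Cdc6* in replicate 2.

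Tankyrase knockdown lowered the fitted value of every one of the 50 genes, and none of them passed the test. The median log2 fold change was -0.83, against 0.00 over all 13672 genes tested, and the 3 mitotic groups lay lowest, with medians of -0.93 for mitotic entry, -0.98 for the spindle checkpoint and -0.90 for spindle and chromosome genes. D-type cyclins and their kinases had a median of -0.17, licensing and clamp genes of -0.43. All 3 siTnks/2 libraries lay below all 3 siCtrl libraries for 43 of the 50 genes, which was the case for 22.2% of all genes tested. The exceptions were *Ccnd1*, *Ccnd3*, *Cdk6*, *E2f8*, *Cdc25b*, *Cenpf* and *Mki67*.

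By edgeR's quasi-likelihood test, 0 of the 50 genes rose and 0 fell at an adjusted p under 0.05, while 10.4% of all genes tested were called higher and 7.61% lower. At an unadjusted p under 0.05, 21 genes were lower and 0 higher, and the smallest adjusted p was 0.0526, for *E2f1*. DESeq2 called 13 of the 50 genes lower, against 10.5% of all genes. These were *E2f1*, *Mcm5*, *Cdk1*, *Cdc25c*, *Aurka*, *Plk1*, *Bub1b*, *Mad2l1*, *Cdc20*, *Ube2c*, *Aurkb*, *Birc5* and *Cenpa*. With the replicate number as a block, edgeR called 11 lower, against 16.5% of all genes.

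The size of the fall differed between libraries. Taking each gene as a percent of its siCtrl mean, the median of the 50 was 68.3% in siTnks/2 replicate 1, 24.6% in replicate 2 and 77.4% in replicate 3. Against the siCtrl library of the same number, all 50 genes were lower in each of the 3 pairs, where 50.9%, 50.5% and 51.8% of all genes were lower. In replicate 1 the median fell from 93.9% for the D-type group over 83.8% for licensing to 63.5% for the spindle checkpoint. In replicate 2 it went from 59.8% over 46.0% to 21.5%, and it was lowest, 17.4%, for spindle and chromosome genes. In replicate 3 the D-type, E-type, licensing and deoxynucleotide groups were level, at 87.9%, 89.1%, 87.3% and 86.2%, and the spindle checkpoint was at 66.2%.

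Without siTnks/2 replicate 2, edgeR called 29 of the 50 genes lower and 0 higher, against 9.47% of all genes called lower. The median log2 fold change was then -0.46, and the value of *Cdk6* was positive, at 0.08. Among the 29 were 8 of 9 mitotic entry genes, all 8 spindle checkpoint genes and 7 of 9 spindle and chromosome genes, against 3 of 9 licensing genes (*Mcm3*, *Mcm5*, *Mcm7*), 2 of 3 deoxynucleotide genes (*Rrm1*, *Rrm2*), *E2f1* and none of the D-type group. With number 2 left out of both groups, 36 were lower against 12.9% of all genes, and 44 against 23.9% with the replicate block. Leaving numbers out of both groups was chosen after seeing the data.

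**Figure D3:**
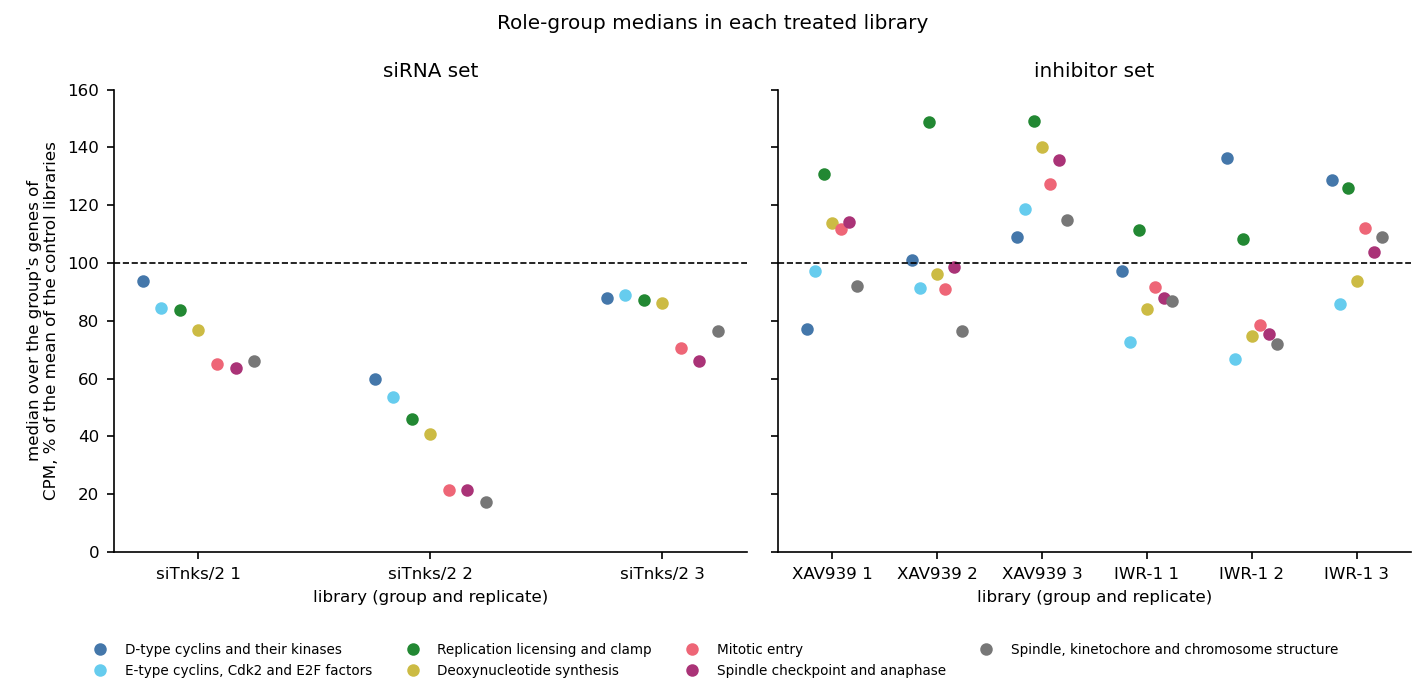
Median over the genes of each role group of CPM as a percent of the mean of the control libraries (y axis), for each treated library (x axis). Dots of siTnks/2 lie under the dashed line at 100% in every library, and licensing genes lie above it in every inhibitor library.

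Among the cyclins and E2F genes, *Ccnd2* (Entrez gene 12444, chr6:127125162-127152188), cyclin D2, was at 746, 656 and 815 CPM in siCtrl and 607, 442 and 650 in siTnks/2. The groups did not overlap, with a log2 fold change (± SE, here and below) of -0.38 ± 0.16 and, by edgeR, an adjusted p of 0.128. *Ccnd3* overlapped between groups, at 179, 183 and 157 CPM against 174, 175 and 156. *E2f1* (13555, chr2:154559400-154569892), an activator of S-phase genes, was at 32.8, 28.8 and 33.4 CPM in siCtrl and 21.4, 14.2 and 24.4 in siTnks/2. Its log2 fold change of -0.66 ± 0.19 was called with the block and by DESeq2. *Ccnd1*, *Ccnd2* and *Cdk4* were lower with the block and not by DESeq2, and *Ccnd1* and *Ccnd2* were also lower with number 2 left out of both groups.

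Of the replication genes, *Pcna* was at 70.9, 68.8 and 66.5 CPM in siCtrl and 61.6, 42.7 and 61.9 in siTnks/2, a log2 fold change of -0.31 ± 0.14. *Mcm5* (17218, chr8:75109468-75128439) went further, from 40.9, 40.7 and 37.9 CPM to 25.4, 11.2 and 28.7 (-0.87 ± 0.30, adjusted p = 0.0895 by edgeR). *Rrm2*, a subunit of ribonucleotide reductase, was at 108, 102 and 119 CPM in siCtrl and 67.5, 22.0 and 84.6 in siTnks/2. For all 3 genes the groups did not overlap, and replicate 2 was the lowest library.

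Of the mitotic genes, *Cdk1* (12534, chr10:69335146-69352912), the mitotic kinase, was at 52.7, 57.5 and 51.0 CPM in siCtrl and 33.7, 13.7 and 35.3 in siTnks/2 (-0.96 ± 0.32, adjusted p = 0.0765 by edgeR). *Cdc20* (107995, chr4:118432901-118437343), which activates the anaphase-promoting complex, was at 47.0, 50.1 and 44.6 CPM against 27.5, 10.4 and 28.9 (-1.08 ± 0.34, adjusted p = 0.0657). Both were lower with the block and by DESeq2. *Top2a* (21973, chr11:98992947-99024199), the topoisomerase that untangles chromosomes, was at 122, 108 and 117 CPM in siCtrl and 80.2, 22.5 and 88.6 in siTnks/2 (-0.86 ± 0.44, adjusted p = 0.208). In replicates 1 and 3 these 3 genes lay in a narrow band, and replicate 2 was far below them. The largest fitted differences were *Cenpa* at -1.14 ± 0.42 and *Ccnb2* at -1.09 ± 0.43, and the smallest was *Ccnd3* at -0.04 ± 0.08.

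Marker lists moved with this comparison as well. The chondrocyte list summed to 87447 to 117327 CPM in siCtrl and 124240 to 201498 in siTnks/2, with 10 of 10 genes positive and 3 higher (*Acan*, *Col9a2*, *Comp*). The fibroblast and synovial list summed to 3276 to 5585 and 1596 to 4500 CPM, with none of 6 tested genes called. The endothelial list summed to 0.715 to 1.59 and 0.416 to 6.88 CPM, with *Cdh5* and *Emcn* at 0 in some libraries. The leukocyte list summed to 7.72 to 9.33 and 5.86 to 7.11 CPM, with *Cd14* lower of 2 genes tested. The osteoblast list summed to 58.8 to 70.1 and 75.3 to 130 CPM, with none of 3 genes called. Their part in the fall of the cell cycle genes was not tested.

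XAV939 moved the 50 genes in a different pattern, in which the genes that license replication rose. Relative to DMSO, 10 genes rose and 2 fell, against 7.57% and 9.85% of all 13873 genes tested. Of the 9 licensing and clamp genes, 8 rose (*Cdt1*, *Mcm2* to *Mcm7* and *Pcna*), all but *Cdc6*. The other genes that rose were *Ccnb2* and *Foxm1*, and those that fell were *Ccnd3* and *Aurka*. The median log2 fold change was 0.17 over the 50 genes and 0.51 over the licensing group, against 0.02 over all genes. No E-type, deoxynucleotide, spindle checkpoint or spindle gene was called. All XAV939 libraries lay above all DMSO libraries for 14 of the 50 genes, against 16.4% of all genes, and 8 of these were the licensing genes that rose.

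*Mcm2* (17216, chr6:88883474-88898780), a helicase subunit, was at 36.5, 38.9 and 43.4 CPM in DMSO and 59.9, 95.7 and 70.0 with XAV939, a log2 fold change of 0.92 ± 0.16 (adjusted p = 0.00296 by edgeR). *Mcm5* was at 33.6, 35.3 and 35.1 CPM in DMSO and 48.5, 73.7 and 55.4 with XAV939 (0.77 ± 0.14, adjusted p = 0.00473). *Cdt1*, the factor that loads the helicase, was at 24.1, 25.7 and 24.4 CPM and 33.1, 45.9 and 35.6 (0.63 ± 0.14, adjusted p = 0.00998). XAV939 replicate 2 was the highest library for these 3 genes, and the groups did not overlap. *Mcm6*, *Mcm4*, *Mcm3*, *Mcm7* and *Pcna* rose by log2 fold changes of 0.35 to 0.55. *Cdc6*, which works with *Cdt1*, was at 10.6, 9.95 and 12.4 CPM against 12.8, 9.98 and 16.1, with overlap. Of the 7 risen licensing genes with a promoter, 5 held E2F letters. *Mcm2* and *Pcna* did not, and *Cdc6* did.

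*Ccnb2* (12442, chr9:70407689-70421554), cyclin B2, was at 16.4, 19.1 and 17.1 CPM in DMSO and 27.9, 30.1 and 28.9 with XAV939 (0.72 ± 0.13, adjusted p = 0.00474 by edgeR). *Ccnb1*, the other B-type cyclin measured, was at 37.1, 36.7 and 47.4 CPM in DMSO and 30.3, 32.7 and 36.2 with XAV939, a log2 fold change of -0.29 ± 0.14 that was called only with the block. *Aurka* (20878, chr2:172356190-172370886), the centrosomal kinase, fell from 33.8, 33.7 and 39.4 CPM to 18.8, 16.3 and 23.0 (-0.88 ± 0.15, adjusted p = 0.00282). The XAV939 libraries did not overlap the DMSO libraries for any of the 3 genes. *Aurka* overlaps *Cstf1* in the annotation, so its count could depend on how reads in the overlap were counted. The same holds for other genes called here, among them *Ccnd3* (*Bysl*), *Cdc20* (*Elovl1*), *Cdk4* (*Tspan31*), *E2f1* (*Necab3*), *Ccne2* (*Ints8*), *Foxm1* (*Tex52*) and *Mcm7* (*Ap4m1*). *Ccnd3* (12445, chr17:47505051-47599689), cyclin D3, fell from 160, 170 and 119 CPM to 116, 114 and 98.7 (-0.45 ± 0.13, adjusted p = 0.0398).

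By median log2 fold change the other groups stayed nearer to DMSO, from -0.12 for the D-type group to 0.23 for the spindle checkpoint. Single genes in them moved further without passing the test, among them *Cenpe* (-0.90), *Mad2l1* (0.51) and *E2f2* (0.47). *E2f1* was at 49.8, 43.6 and 43.9 CPM in DMSO and 37.4, 41.8 and 38.5 with XAV939 (-0.22 ± 0.10, adjusted p = 0.146 by edgeR), without overlap. *Rrm2* was at 102, 101 and 125 CPM against 125, 105 and 165. *Cdc20* was at 43.9, 41.0 and 41.3 CPM against 35.7, 35.1 and 38.8, and *Top2a* at 120, 107 and 170 against 132, 119 and 176. *Mki67*, the proliferation antigen, had a mean of 102 ± 32.8 CPM in DMSO and 102 ± 26.9 with XAV939 (SD, n = 3 each). *Top2a*, *Mki67*, *Cenpe*, *Cenpf* and *Kif11*, long transcripts, were all highest among DMSO libraries in replicate 3. *Ccnd3* and *Mad2l1*, also long at 8775 and 8390 bases of exon, were not, and the shorter *Rrm2* (2771 bases) was. The median of the 50 genes in that library was 109% of the DMSO mean.

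The replicate block raised the counts for XAV939 to 15 genes higher and 6 lower, against 16.0% and 17.4% of all genes. It added *Ccnd2*, *E2f2*, *E2f8*, *Cdc25b* and *Mad2l1* to those that rose, and *Ccne2*, *Ccnb1*, *Cenpe* and *Cenpf* to those that fell. Leaving out each of the 9 libraries of the set in turn, *Cdt1*, *Mcm2*, *Mcm5*, *Mcm6*, *Mcm7*, *Ccnb2* and *Aurka* passed every time. With only the DMSO and XAV939 groups fitted, 7 genes rose, and *Mcm3*, *Mcm7* and *Pcna* lost the call (adjusted p = 0.0921, 0.0509 and 0.0818 by edgeR), which left 5 licensing genes. The number that rose was 6 without DMSO replicate 1 and 6 without XAV939 replicate 3. *Mcm4* and *Pcna* lost the call without either of these libraries (adjusted p up to 0.0667 and 0.0701). *Foxm1* lost it without either of these, DMSO replicate 2 or XAV939 replicate 2 (up to 0.0929). *Mcm3* kept it only without DMSO replicate 3 or XAV939 replicate 1 (up to 0.117), and *Ccnd3* only without DMSO replicate 3 or IWR-1 replicate 3 (up to 0.137).

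**Figure D4:**
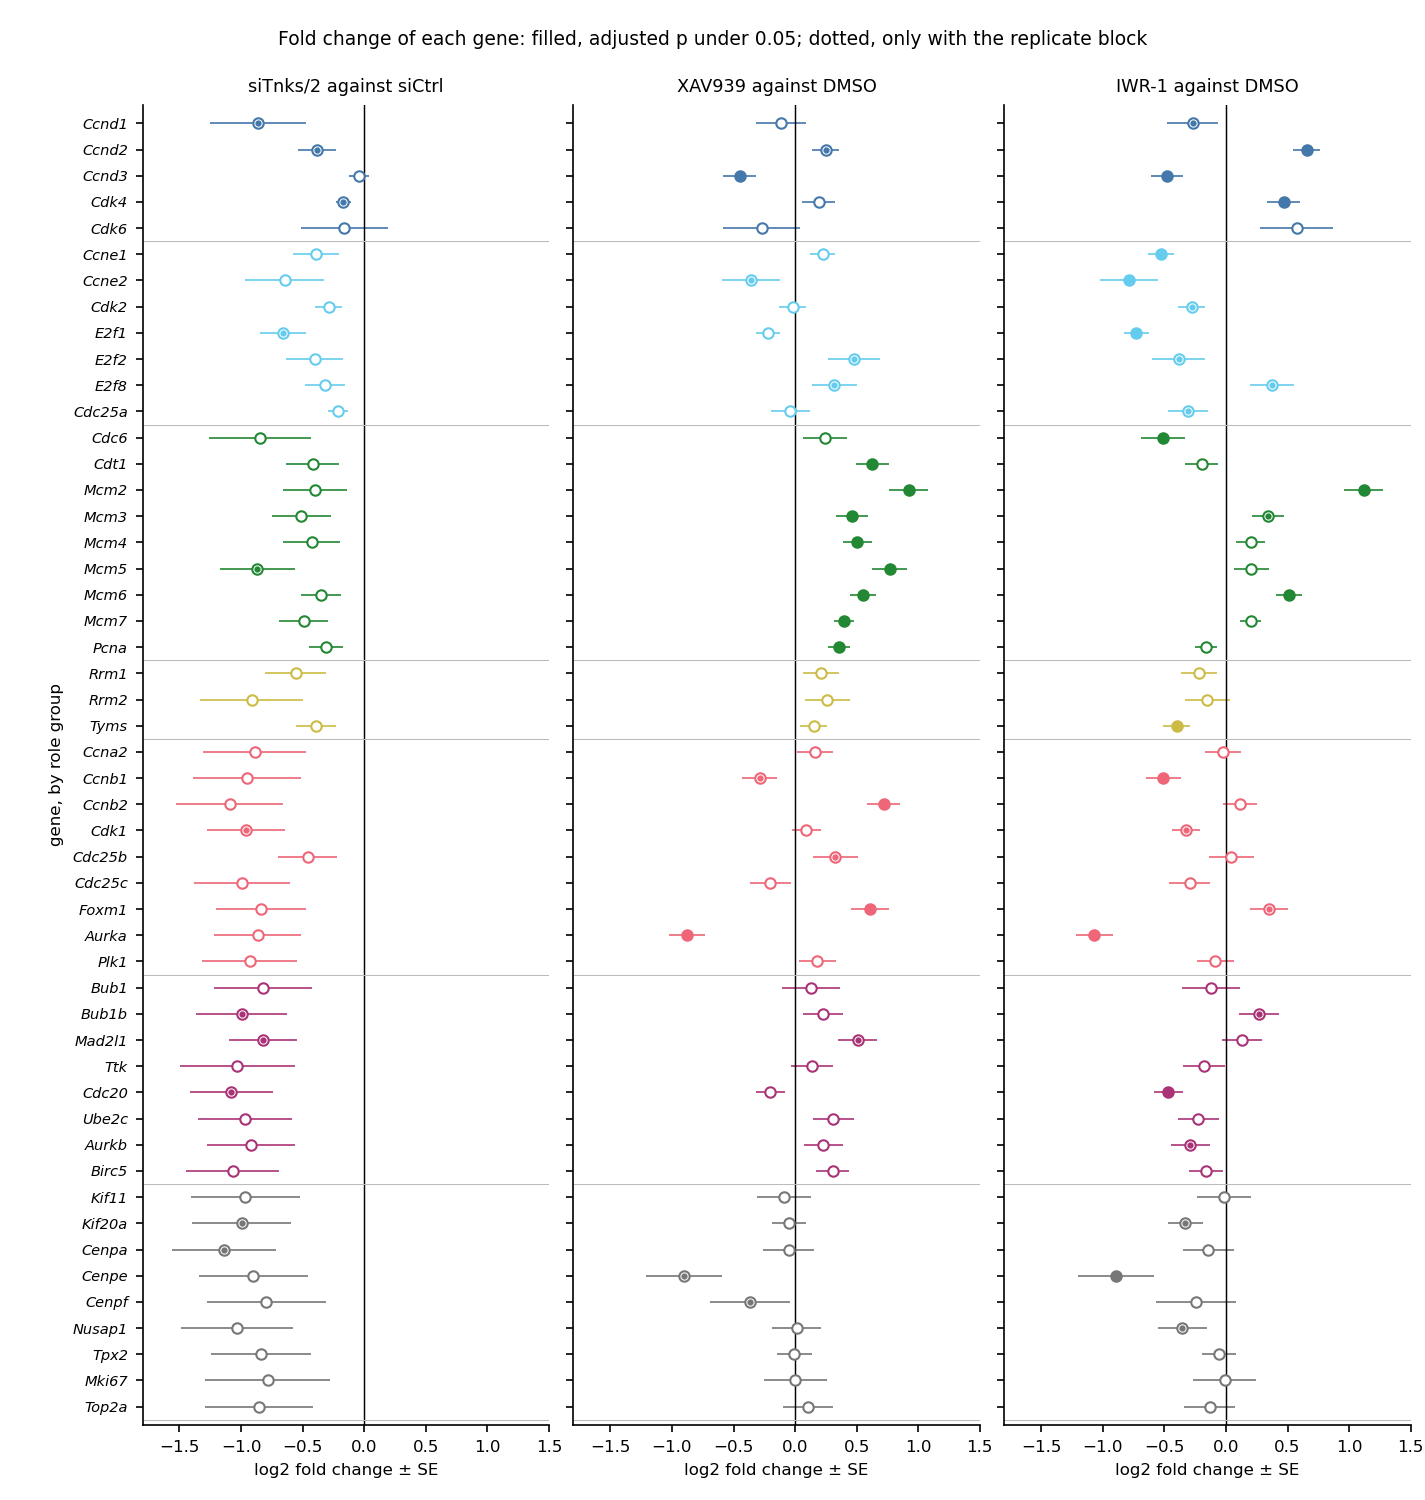
Log2 fold change with its SE (x axis) of the 50 genes (y axis, by role group) in the 3 comparisons with a control, 3 libraries a group. Filled points passed an adjusted p under 0.05 and small dots mark those called only with the replicate block. All points lie left of 0 after knockdown, while 8 of 9 licensing genes are filled and right of 0 with XAV939.

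IWR-1 gave changes in both directions, also within role groups. Relative to DMSO, 4 rose and 10 fell, against 16.2% and 20.2% of all genes tested, so the share that fell, 20%, was that of genes in general and the share that rose, 8%, was below it. The 4 that rose were *Ccnd2* and *Cdk4* of the D-type group and *Mcm2* and *Mcm6* of the helicase. Those that fell were *Ccnd3*, *Ccne1*, *Ccne2*, *E2f1*, *Cdc6*, *Tyms*, *Ccnb1*, *Aurka*, *Cdc20* and *Cenpe*. The median log2 fold change was -0.16 over the 50 genes and 0.01 over all genes. By role group it was highest for the D-type group, at 0.47, and lowest for the E-type and E2F group, at -0.39. All IWR-1 libraries lay below all DMSO libraries for 13 of the 50 genes, against 26.4% of all genes.

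*Ccnd2* was at 342, 309 and 381 CPM in DMSO and 511, 525 and 588 with IWR-1 (0.65 ± 0.11, adjusted p = 0.000978 by edgeR). *Cdk4*, its partner kinase, was at 235, 247 and 193 CPM and 337, 307 and 290 (0.47 ± 0.13, adjusted p = 0.0186). *Ccnd3* moved the other way, from 160, 170 and 119 CPM to 105, 111 and 106 (-0.48 ± 0.13, adjusted p = 0.0161). *Ccnd1* was at 46.9, 54.2 and 52.6 CPM against 30.3, 44.5 and 52.7, with overlap. So the 3 D-type cyclins differed in direction, and the groups did not overlap for *Ccnd2*, *Cdk4* and *Ccnd3*.

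*E2f1* fell to 27.6, 26.1 and 29.1 CPM with IWR-1, from the 43.6 to 49.8 CPM in DMSO (-0.73 ± 0.10, adjusted p = 0.00023 by edgeR). *Ccne1* (12447, chr7:38097984-38107490), cyclin E1, fell from 27.2, 29.0 and 25.6 CPM to 19.8, 17.0 and 19.9 (-0.53 ± 0.10, adjusted p = 0.0022). *Ccne2* fell from 26.9, 24.6 and 32.4 CPM to 16.1, 13.2 and 19.4 (-0.79 ± 0.24, adjusted p = 0.0237). None of the 3 showed overlap. *Cdk2*, the kinase that cyclin E activates, was at 33.5, 36.8 and 36.5 CPM against 30.9, 26.5 and 30.6 and was lower only with the block.

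Within the licensing group IWR-1 gave opposite changes. *Mcm2* rose to 88.9, 78.9 and 90.0 CPM, which was 225%, 199% and 227% of the DMSO mean (1.12 ± 0.16, adjusted p = 0.000301 by edgeR). *Mcm6* rose from 46.1, 52.1 and 55.3 CPM to 74.7, 68.3 and 75.5 (0.51 ± 0.11, adjusted p = 0.00355). *Cdc6* fell from 10.6, 9.95 and 12.4 CPM to 7.99, 6.64 and 8.35 (-0.51 ± 0.18, adjusted p = 0.046). *Mcm5* was at 38.7, 37.6 and 43.7 CPM, above the 33.6 to 35.3 of DMSO, without passing the test (0.20 ± 0.14). *Tyms*, thymidylate synthase, fell from 41.2, 41.3 and 35.5 CPM to 30.8, 26.9 and 31.7 (-0.40 ± 0.11, adjusted p = 0.0152). A pseudogene of *Tyms* is in the tables, and the *Tyms* count could depend on how reads matching both were counted.

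Of the mitotic genes, *Aurka* had the largest fall, to 17.6, 14.5 and 18.7 CPM (-1.07 ± 0.15, adjusted p = 0.000262 by edgeR). *Ccnb1* fell from 37.1, 36.7 and 47.4 CPM to 27.7, 24.4 and 32.9 (-0.51 ± 0.14, adjusted p = 0.0167), and *Cdc20* from 43.9, 41.0 and 41.3 to 29.8, 26.1 and 35.3 (-0.47 ± 0.12, adjusted p = 0.00969). *Cenpe* (229841, chr3:135212563-135273540), a kinetochore motor, was at 29.2, 26.1 and 55.0 CPM in DMSO and 18.5, 15.4 and 25.3 with IWR-1 (-0.89 ± 0.31, adjusted p = 0.0419). Without DMSO replicate 3, which was high for long genes, its adjusted p was 0.157, and the call was also lost without XAV939 replicate 1 or IWR-1 replicate 1 or 2. *Mki67*, *Top2a* and *Tpx2* had log2 fold changes of -0.01 ± 0.26, -0.13 ± 0.20 and -0.06 ± 0.14.

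With the block, 8 genes rose and 18 fell with IWR-1, against 22.2% and 25.3% of all genes. Leaving out single libraries, *Ccnd2*, *Mcm2*, *Mcm6*, *Ccne1*, *E2f1* and *Aurka* passed in all 9 fits. The number that fell dropped to 4 without IWR-1 replicate 2, to 5 without IWR-1 replicate 1 and to 6 without DMSO replicate 1. *Cdc20* (adjusted p up to 0.0527), *Tyms* (0.0817), *Ccnb1* (0.081), *Cdk4* (0.0763) and *Ccne2* (0.0972) lost the call without IWR-1 replicate 2. The last 3 also lost it without IWR-1 replicate 1, *Tyms* and *Ccne2* without DMSO replicate 1, and *Cdk4* and *Ccne2* without DMSO replicate 3. *Ccnd3* lost it without DMSO replicate 1 or 2 or IWR-1 replicate 1 (up to 0.065). *Cdc6* kept it only without XAV939 replicate 2 or 3 (up to 0.166).

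**Figure D5:**
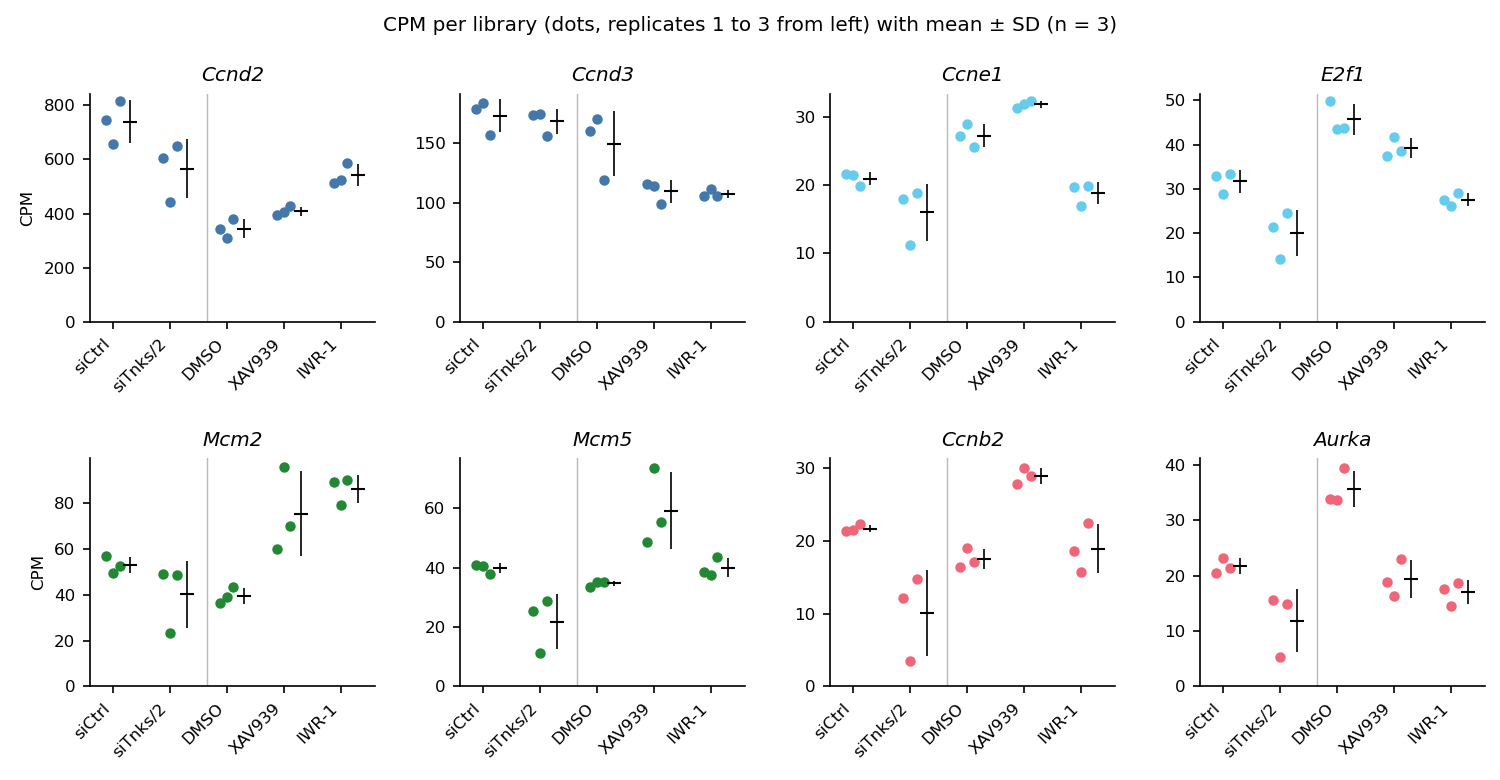
CPM (y axis, from 0) of 8 genes in the 15 libraries (dots, replicates 1 to 3 from left) with the mean and SD of 3 (black); the grey line parts the siRNA set from the inhibitor set, which were scaled separately. *Ccnd2* is highest with IWR-1 within the inhibitor set, *Ccnb2* with XAV939, and *Aurka* is low with both.

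Cell type markers moved with both inhibitors. The chondrocyte list summed to 27664 to 37325 CPM in DMSO, 38275 to 57523 with XAV939 and 91041 to 115112 with IWR-1, with 4 and 10 of its 10 genes higher. The fibroblast and synovial list summed to 9187 to 12124, 4303 to 6390 and 3279 to 5693 CPM, with *Col1a1*, *Col3a1* and *Pdgfra* lower with each inhibitor and *Pi16* higher with IWR-1. The leukocyte list summed to 32.1 to 40.6, 27.3 to 34.0 and 12.2 to 16.8 CPM. With IWR-1 3 of its 4 tested genes were lower (*Csf1r*, *Cd68*, *Cd14*), while *Ptprc* was at 0 in 6 of the 15 libraries. The osteoblast list summed to 42.1 to 65.1 CPM in DMSO, 56.5 to 65.7 with XAV939 and 42.1 to 60.6 with IWR-1, so these sums overlapped. Of its 3 genes, *Bglap* and *Sp7* were higher with each inhibitor. *Ibsp* was not called, with log2 fold changes of 0.01 with XAV939 and -0.35 with IWR-1. *Tek*, the 1 endothelial gene tested, was lower with IWR-1 (-2.30 ± 0.34). Their part in the changes of the cell cycle genes was not tested.

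The inhibitors were compared directly, at the same dose and time. IWR-1 gave lower values than XAV939 for 12 of the 50 genes and a higher value for 1, *Ccnd2*, against 10.2% and 7.37% of all genes. The 12 were *Ccne1*, *E2f1*, *E2f2*, *Cdc6*, *Cdt1*, *Mcm5*, *Pcna*, *Tyms*, *Ccnb2*, *Cdk1*, *Aurkb* and *Birc5*, and the median log2 difference over the 50 was -0.26. *Ccne1* was at 31.4, 31.9 and 32.4 CPM with XAV939 against 17.0 to 19.9 with IWR-1 (-0.75 ± 0.10, adjusted p = 0.000884 by edgeR). *Cdt1* was at 33.1, 45.9 and 35.6 CPM against 20.9, 19.6 and 24.1 (-0.82 ± 0.14, adjusted p = 0.0023), and *Pcna* at 146, 161 and 158 against 113, 101 and 111 (-0.51 ± 0.09, adjusted p = 0.00299). The libraries did not overlap for any of the 3.

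The other 37 genes were not called between the inhibitors. For 10 of them (*Cdk2*, *Cdk4*, *Cdk6*, *Mcm4*, *Mcm7*, *Rrm1*, *Rrm2*, *Mad2l1*, *Cdc20* and *Ube2c*) the unadjusted 95% interval of the difference, taken as 1.96 SE each way, excluded 0. It was 0.25 to 1.44 for *Cdk6* and -0.86 to -0.20 for *Ube2c*. Among the genes called with both inhibitors, the log2 difference was 0.19 for *Mcm2* (-0.11 to 0.50), -0.04 for *Mcm6* (-0.25 to 0.17), -0.19 for *Aurka* (-0.48 to 0.10) and -0.03 for *Ccnd3* (-0.29 to 0.23). For *Mki67* it was -0.01 (-0.51 to 0.49). With the block, 22 genes were lower and 2 higher with IWR-1, against 16.6% and 14.1% of all genes. Leaving out a library, *Ccne1*, *E2f1*, *Cdt1*, *Pcna* and *Tyms* passed in all 9 fits. The 12 became 5 without IWR-1 replicate 2 and 7 without IWR-1 replicate 1 or XAV939 replicate 3. *Ccnd2* passed in 3 of 9 fits, with adjusted p up to 0.115.

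The knockdown and the inhibitor effects were compared in 1 model over all 15 libraries. The XAV939 effect was higher than the knockdown effect for 14 of the 50 genes and lower for 0, against 5.40% and 8.07% of all 14271 genes tested, with a median difference of 0.87 (log2). The 14 held 8 of 9 licensing and clamp genes, all but *Cdc6*, with *Ccnd2*, *Ccnb2*, *Cdk1*, *Foxm1*, *Mad2l1* and *Birc5*. *Mcm5* had log2 changes of -0.87 after knockdown and 0.77 with XAV939, a difference of 1.62 ± 0.34 (adjusted p = 0.00654 by edgeR). *Ccnb2* had -1.09 and 0.72, a difference of 1.80 ± 0.44 (adjusted p = 0.0164). For *Aurka*, with -0.86 and -0.88, the difference of -0.02 ± 0.40 was not called.

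The IWR-1 effect was higher than the knockdown effect for 10 genes and lower for 0, against 10.5% and 13.9% of all genes. These were *Ccnd2*, *Cdk4*, *Mcm2*, *Mcm3*, *Mcm5*, *Mcm6*, *Mcm7*, *Foxm1*, *Bub1b* and *Mad2l1*. *Ccnd2* had log2 changes of -0.38 and 0.65 (difference 1.03 ± 0.19, adjusted p = 0.00146 by edgeR). *E2f1* had -0.66 and -0.73 (difference -0.08 ± 0.21). With the block, 38 genes were higher for XAV939 and 24 for IWR-1, against 12.7% and 17.0% of all genes, and *Ccnd3* was lower in both. Beside the treatment, these tests span sets that differ in transfection and vehicle, and those differences cannot be told apart from the treatment. The time between transfection and harvest is not given in the sources used here, so culture time could not be compared. The inhibitor comparisons share the DMSO libraries, and both differences share the siRNA libraries. Leaving out each library, the count lay between 8 and 24 for XAV939 and between 4 and 13 for IWR-1, and *Mcm2* and *Mcm6* passed in every fit of both.

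Other genes of the cycle were read from further lists, whose counts stand against 10.4% of all genes higher and 7.61% lower after knockdown, 7.57% and 9.85% with XAV939, and 16.2% and 20.2% with IWR-1. CDK inhibitors and pocket proteins restrain the kinases above. Of 10, 1 rose and 1 fell after knockdown, 0 and 2 with XAV939, and 1 and 5 with IWR-1. *Cdkn1a*, which encodes p21, was at 388, 419 and 358 CPM in siCtrl and 501, 635 and 437 in siTnks/2 (0.43 ± 0.14, adjusted p = 0.0739 by edgeR, called with the block). With the inhibitors it fell, from 713, 539 and 523 CPM in DMSO to 402, 280 and 373 with XAV939 and 270, 260 and 246 with IWR-1. Its log2 fold changes were -0.75 ± 0.16 and -1.19 ± 0.16, and both differed from the knockdown effect (adjusted p = 0.00387 and 0.00015). *Cdkn1c*, which encodes p57, rose from 180, 174 and 153 CPM to 357, 398 and 248 after knockdown (0.98 ± 0.17, adjusted p = 0.0136) and with IWR-1 (0.83 ± 0.17). *Cdkn2b* fell after knockdown and with IWR-1 (-1.15 ± 0.27 and -0.93 ± 0.18), and *Cdkn2a* fell with IWR-1 (-0.96 ± 0.22). The knockdown calls of *Cdkn1c* and *Cdkn2b* were lost without any one siCtrl library or siTnks/2 replicate 1 (adjusted p up to 0.06 and 0.0961).

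Of 32 other S-phase genes, 0 rose and 1 fell after knockdown, 8 rose and 0 fell with XAV939, and 4 rose and 0 fell with IWR-1. *Ung* and *Cdca7* rose with IWR-1 (0.86 ± 0.13 and 0.73 ± 0.15), and *Cenpu* fell after knockdown (-0.92 ± 0.23). The calls of *Cenpu*, *E2f6* and *Tfdp2* after knockdown were lost without any one siCtrl library or siTnks/2 replicate 1. Of 35 other G2/M genes, all 35 had negative values after knockdown, where 49.8% of all genes were positive, and 6 fell. Without siTnks/2 replicate 2, the knockdown values of *Anp32e*, *Tubb4b* and *Ctcf* were slightly positive (0.07, 0.02 and 0.05). Of the same 35, 1 rose and 5 fell with XAV939, and 0 rose and 11 fell with IWR-1. *Gtse1*, a G2 and S phase protein that binds microtubules, was at 47.8, 40.3 and 48.9 CPM in DMSO and 15.8, 13.4 and 16.6 with IWR-1 (-1.58 ± 0.15, adjusted p = 2.75e-05 by edgeR), and it also fell after knockdown (-1.08 ± 0.19) and with XAV939 (-0.49 ± 0.15). The XAV939 call was held in 2 of 9 fits without a library, and the knockdown call was lost without siTnks/2 replicate 1. *Ckap2* and *Gas2l3* fell with IWR-1 by 1.75 and 1.53 on the log2 scale. *Cks1b*, a CDK subunit, fell after knockdown (-0.78 ± 0.13) and rose with XAV939 (0.44 ± 0.13), the latter held in 1 of 9 such fits. Of 13 other E2F and DREAM or MMB complex genes, 0 rose and 2 fell after knockdown (*E2f6* and *Tfdp2*), 1 rose with XAV939 (*Mybl2*, 0.52 ± 0.13, lost without DMSO replicate 2) and 0 were called with IWR-1.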

How the data were processed

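The deposited values were whole-number counts of reads per gene, 1 table for the siRNA set and 1 for the inhibitor set. The submitters' processing notes name Trimmomatic 0.32, TopHat2 2.0.13 and HTSeq 0.6.1p1, and gene positions are given on mm10. The annotation and strand setting used for counting are not given in the sources used here. Entrez IDs were matched to symbols for 24051 of 24134 genes. Each table was fitted on its own with edgeR 4.0.16 (R 4.3.3), using filterByExpr with a minimum count of 10, TMM scaling, a prior count of 2, the quasi-likelihood test and Benjamini-Hochberg adjustment over all genes tested. A change was called at an adjusted p under 0.05. Differences between knockdown and inhibitor effects came from 1 fit of all 15 libraries. The genes, lists, role groups and tests were chosen with earlier results of these data known. Values in every library were given, per role group and comparison with a control, for up to 2 called genes with the largest change or, with none called, for the gene with the highest mean CPM, and of other pathway lists up to 3 called genes each way were named. An item that this rule selects is not reported here. *Ccnd1*, *Cdk4*, *Ccne1*, *Cdk2*, *Cdt1*, *Mcm6*, *Cenpa*, *Mki67* and *Tpx2* were added after their values were seen.

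Replicate numbers in the labels and columns were checked for pairing. Deviations of same-numbered libraries correlated at 0.143 to 0.553 over 9 pairs of the inhibitor set and at 0.424 to 0.519 over 3 pairs of the siRNA set. Other pairs lay between -0.489 and 0.318, so fits with the number as a block are given beside the results. Alternatives were other scalings, filters, DESeq2 1.42.0, 2-group fits, the limits of the study and leaving out libraries. The fits were tested on simulated data, for siTnks/2 against siCtrl and XAV939 against DMSO. In each, 93 of 100 genes with a true log2 change of 1 were recovered, and 100 of 100 with 2. False calls numbered 9 and 2. The simulation held neither pairing by number nor a library that stood apart, so it does not cover those features of the siRNA set. The study describes the 3 libraries of each group as biological replicates.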

Additional observations from a re-analysis of the deposited data

Results flagged for a closer look

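The change with XAV939 relative to DMSO differed from the change after knockdown for 14 of the 50 genes, by the test of the difference in edgeR. Each difference was positive, and of all genes tested 5.40% were called higher and 8.07% lower. As a log2 difference with its SE, it was 1.8 ± 0.442 for *Ccnb2* (adjusted p = 0.0164), 1.62 ± 0.336 for *Mcm5* (adjusted p = 0.00654), 1.43 ± 0.397 for *Foxm1* (adjusted p = 0.029) and 1.36 ± 0.39 for *Birc5* (adjusted p = 0.0334). Next came 1.32 ± 0.321 for *Mad2l1* (adjusted p = 0.0157), 1.31 ± 0.314 for *Mcm2* (adjusted p = 0.0146), 1.04 ± 0.328 for *Cdk1* (adjusted p = 0.0496) and 1.03 ± 0.254 for *Cdt1* (adjusted p = 0.0165). Smaller differences were 0.961 ± 0.273 for *Mcm3* (adjusted p = 0.0325), 0.919 ± 0.259 for *Mcm4* (adjusted p = 0.0313), 0.891 ± 0.193 for *Mcm6* (adjusted p = 0.00861) and 0.876 ± 0.209 for *Mcm7* (adjusted p = 0.014). The remaining values were 0.652 ± 0.161 for *Pcna* (adjusted p = 0.0169) and 0.618 ± 0.193 for *Ccnd2* (adjusted p = 0.0472). Leaving out each of the 15 libraries in turn, 8 of the 14 passed every time. *Cdk1* and *Ccnd2* passed in 3 of 15 fits, *Mcm3* and *Mcm4* in 8, and *Foxm1* and *Birc5* in 9.

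The change with IWR-1 relative to DMSO differed from the change after knockdown for 10 of the 50 genes, by the test of the difference in edgeR. Each difference was positive, and of all genes tested 10.5% were called higher and 13.9% lower. As a log2 difference with its SE, it was 1.51 ± 0.315 for *Mcm2* (adjusted p = 0.00303), 1.25 ± 0.404 for *Bub1b* (adjusted p = 0.035), 1.18 ± 0.397 for *Foxm1* (adjusted p = 0.0428) and 1.06 ± 0.336 for *Mcm5* (adjusted p = 0.032). Next came 1.03 ± 0.193 for *Ccnd2* (adjusted p = 0.00146), 0.943 ± 0.321 for *Mad2l1* (adjusted p = 0.0443), 0.853 ± 0.193 for *Mcm6* (adjusted p = 0.00511) and 0.838 ± 0.273 for *Mcm3* (adjusted p = 0.037). Smaller differences were 0.682 ± 0.209 for *Mcm7* (adjusted p = 0.0276) and 0.626 ± 0.157 for *Cdk4* (adjusted p = 0.00936). Leaving out each library in turn, *Ccnd2*, *Cdk4*, *Mcm2* and *Mcm6* passed in all 15 fits. *Mad2l1* passed in 4 of them, *Foxm1* in 5, *Mcm3* in 7, *Mcm5* and *Bub1b* in 8 and *Mcm7* in 9. Both sets of differences share the 6 siRNA libraries. The sets also differ in transfection and vehicle, which cannot be told apart from the treatment. Without siTnks/2 replicate 2, the median difference over the 50 genes went from 0.87 to 0.55 for XAV939 and from 0.68 to 0.31 for IWR-1.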

How the results depend on the processing

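With the replicate number as a block, calls of the 50 genes rose, given here with the share of all genes. After knockdown 11 were lower (16.5%), and with XAV939 6 (17.4%). With IWR-1, 8 were higher (22.2%) and 18 lower (25.3%). For IWR-1 against XAV939, 2 were higher (14.1%) and 22 lower (16.6%). For the XAV939 and IWR-1 effects against knockdown, 38 (12.7%) and 24 (17.0%) were higher, and 1 was lower in each. DESeq2 called 13 lower after knockdown, against 10.5% of all genes, and no filter on low counts 1. XAV939 lowered 1 gene with upper-quartile scaling, and raised 7 and lowered 1 with only its 2 groups fitted. With the limits of the study (a fold over 3 and an adjusted p under 1e-05) set on the edgeR fits, 0 rose and 0 fell with either inhibitor. The study itself set these limits on DESeq2 results. Number 2 left out of both siRNA groups, chosen after seeing the data, gave 36 lower against 12.9% of all genes. With the block it gave 44 against 23.9%. The causes were not tested. Leaving out 1 library at a time, genes lower after knockdown numbered 0 to 29 and the median log2 change was -1.12 to -0.46. The 29 came without siTnks/2 replicate 2, against 9.47% of all genes. Shares of all genes were not taken for the other fits without a library, so those counts show only how far the calls moved. With XAV939, 6 to 10 rose, 1 to 2 fell and the median was 0.04 to 0.26. With IWR-1, 3 to 5 rose, 4 to 12 fell and the median was -0.30 to -0.08. For IWR-1 against XAV939, 0 to 3 were higher and 5 to 15 lower, with medians of -0.39 to -0.16. Against knockdown, the XAV939 effect was higher for 8 to 24 genes and lower for 0 to 1 (median 0.55 to 1.12), the IWR-1 effect for 4 to 13 and 0 to 1 (0.31 to 0.92). Single genes called in the main fits were recomputed under the other settings, which gave 1796 values. Of these, 1492 kept the call, 304 lost it and 0 reversed. Calls gained under other settings, as for the 50 genes after knockdown, were not counted there. Depth did not limit detection, with at least 25 counts for each of the 50 genes in every library, and 3 libraries a group limit precision.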
